A study of Mus musculus with 4 samples.

Results

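The granzymes Gzma, Gzmb, Gzmc, Gzmd, Gzme, Gzmf, Gzmg and Gzmk, the pore protein gene Prf1 and the granzyme B inhibitor gene Serpinb9 were followed through 4 single-cell RNA libraries of immune cells that had infiltrated brain tumours. They are 10 of the 31053 genes counted in these libraries, and all 10 symbols had a row in every library. The tumours arose in a genetically engineered glioma model on the C57BL/6 strain, and the cells were taken at the symptomatic stage. Tumours of the mIDH1 group (2 libraries) expressed mutant IDH1, and tumours of the wtIDH1 group (2 libraries) expressed wild-type IDH1. The labels name neither the amino acid change, the other tumour alleles or promoters, the age of the mice, nor the sort that isolated the immune cells. They do not say whether a library held 1 mouse or a pool, so the spread between libraries may be technical. The p-values between genotypes below rest on that spread and, with 2 libraries a group, on the test's model of the variance. Those that compare classes rest on how the difference within a library varied over the libraries. Counts per gene do not separate the IDH1 alleles, so the genotype label was not checked.

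Natural killer (NK) cells and CD8 T cells kill by releasing granules toward a target. Perforin, the product of Prf1, forms pores in the target membrane through which granzymes, serine proteases stored in the same granules, enter. Granzyme B cleaves caspases and Bid and so starts apoptosis, and granzyme A cleaves other substrates, among them the SET complex. Granzyme K is a tryptase related to granzyme A, and Gzmc to Gzmg encode mouse granzymes that lie beside Gzmb and whose substrates are less well known. Serpinb9 encodes a cytosolic serpin that inhibits granzyme B and protects killer cells and dendritic cells from it.

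In the GENCODE M21 annotation of mm10 (GRCm38), 6 members formed a cluster on chromosome 14, chr14:56117626-56262260, a span of 145 kb. Its genes Gzme, Gzmd, Gzmg, Gzmf, Gzmc and Gzmb, in this order of position, all lay on the minus strand with 5 exons each. Gzma (chr13:113093825-113100981) and Gzmk (chr13:113171608-113225908) lay within 132 kb on the minus strand of chromosome 13. Serpinb9 lay at chr13:33003250-33017957 on the plus strand, within 53 kb of Serpinb6b, and Prf1 at chr10:61297833-61304680 on the plus strand. The promoters of the cluster are shown because Gzmd, Gzme, Gzmf and Gzmg are close copies in sequence, because the cluster's genes differed in the cells that held their UMIs, and because 1 element differed between them. Each sequence below is RefSeq's GRCm38.p6 sequence from 140 bases before the transcription start to the base before it, 5′ to 3′ on the gene's strand (minus for the 6 cluster genes, plus for Serpinb9). In the first 5, capitals mark the RUNX motif TGTGGT and the cyclic AMP response element TGACGTCA or its 1-base variant. In Gzmb they mark TGTGGT alone, and in Serpinb9 the reverse strand of an ISRE-like motif, 2 GAAA separated by 2 bases, as in interferon response elements.
Gzmc: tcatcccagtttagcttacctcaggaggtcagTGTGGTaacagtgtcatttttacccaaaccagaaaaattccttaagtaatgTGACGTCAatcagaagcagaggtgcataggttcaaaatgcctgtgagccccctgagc
Gzmd: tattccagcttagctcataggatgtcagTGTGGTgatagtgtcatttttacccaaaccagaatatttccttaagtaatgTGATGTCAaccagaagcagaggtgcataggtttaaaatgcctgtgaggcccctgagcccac
Gzme: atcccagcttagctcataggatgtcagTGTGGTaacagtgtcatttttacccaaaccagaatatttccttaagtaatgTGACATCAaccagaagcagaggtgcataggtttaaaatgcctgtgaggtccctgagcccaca
Gzmf: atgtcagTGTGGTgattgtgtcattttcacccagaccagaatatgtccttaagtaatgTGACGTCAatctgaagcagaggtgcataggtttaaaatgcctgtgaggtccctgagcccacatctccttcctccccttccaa
Gzmg: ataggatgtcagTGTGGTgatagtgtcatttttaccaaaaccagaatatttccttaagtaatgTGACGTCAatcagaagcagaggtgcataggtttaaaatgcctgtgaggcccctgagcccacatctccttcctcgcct
Gzmb: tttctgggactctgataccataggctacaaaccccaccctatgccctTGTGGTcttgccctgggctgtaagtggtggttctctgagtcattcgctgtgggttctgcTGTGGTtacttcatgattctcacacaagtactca
Serpinb9: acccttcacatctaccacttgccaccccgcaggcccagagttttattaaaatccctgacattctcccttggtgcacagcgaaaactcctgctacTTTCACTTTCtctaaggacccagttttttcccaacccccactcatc
The windows are chr14:56234658-56234797, chr14:56132594-56132733, chr14:56120626-56120765, chr14:56211408-56211547, chr14:56159580-56159719, chr14:56262335-56262474 and chr13:33004401-33004540 in the same order. In the Gzmd and Gzmf windows, 15 and 10 bases fall in exons of the GENCODE annotation. With positions counted from 1 at the 5′ end of TGACGTCA, Gzmd carried C4T and Gzme carried G5A, at bases -61 and -62 from the start, while Gzmc (-57), Gzmf (-82) and Gzmg (-77) held the element unchanged.

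Motifs were searched on both strands in the 250 bases before the start of all 32851 RefSeq promoters of the table, and all 10 members matched by symbol. TGACGTCA was present in 3 of 10 members, all in the cluster, and in 1.55% of all promoters. TGTGGT was present in 8 of 10 members, among them all 6 cluster genes, and in 14% of all promoters. The 250-base promoters of Gzmc to Gzmg shared 84.4 to 95.6% of aligned bases with each other. Their matches are thus not independent cases, and these counts do not measure enrichment. The ISRE-like motif was found in Gzma and Serpinb9 and in 2.98% of all promoters. The AP-1 motif TGANTCA was found in Gzmb (6.75% of all promoters), and the T-box motif GGTGTGA in Gzmk (3.33%). These matches describe letters in a window and say nothing of binding. Over their longest annotated transcripts Gzmd and Gzme shared 94.8% of aligned bases, with a longest common run of 96 bases, and each shared 90.1% or more with Gzmg. Reads of Gzmd, Gzme and Gzmg could therefore be split between these genes or dropped in counting, and their separate counts are uncertain. Gzmb and Gzmc shared 76.2% of aligned bases.

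After filtering, 3653 and 3507 cells of the mIDH1 libraries and 3057 and 2980 cells of the wtIDH1 libraries remained (13197 in all), with median depths of 3371 and 2700 UMIs in mIDH1 and of 4959 and 4869 UMIs in wtIDH1. Any 2 libraries shared at most 24 cell barcodes. Cells were assigned to classes by fixed marker UMIs that included none of the 10 genes, and UMIs (unique molecular identifiers, each standing for 1 captured transcript) were then summed per class and library. Levels are given as UMIs per 1000000 UMIs of the class sum in that library (CPM), a scale that is not corrected for transcript length, so levels are compared between classes and libraries for 1 gene at a time. NK cells (2 or more UMIs of Ncr1 and Klrb1c, none of Cd3d, Cd3e, Cd3g and Trac) numbered 66 and 107 in mIDH1 and 154 and 100 in wtIDH1. They held Eomes at 207.5 to 346.7 CPM, against 24.2 to 37.2 CPM in CD8 T cells, and the gate can hold other group 1 innate lymphoid cells. CD8 T cells numbered 299 and 128 in mIDH1 and 142 and 222 in wtIDH1, and CD4 T cells 132 and 67 in mIDH1 and 197 and 108 in wtIDH1. Neutrophils made up 27.6% and 50.3% of the mIDH1 cells, against 3.73% and 6.17% of the wtIDH1 cells. Sums over all cells of a library therefore mix classes in different proportions, and in them fewer cells of a type and less RNA per cell cannot be told apart.

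NK cells held the highest Gzma and Prf1 levels of the tested classes, and they differed from CD8 T cells in 6 of the 7 members tested. Gzma in NK cells stood at 14124 and 15242 CPM in mIDH1 and at 14849 and 9844 CPM in wtIDH1, and a Gzma UMI was read in 91.0 to 96.3% of NK cells (median depths 2709 to 3721 UMIs). In monocytes and macrophages (median depths 7126 to 8744 UMIs), which should lack the gene, it stood at 3.60 to 22.7 CPM. In CD8 T cells Gzma stood at 3267 and 541 CPM in mIDH1 and at 1896 and 4327 CPM in wtIDH1, so every library was higher in its NK cells. Prf1 stood at 1299 and 1553 CPM in mIDH1 NK cells and 2028 and 1440 CPM in wtIDH1 NK cells, against 886 and 333 CPM in mIDH1 CD8 T cells and 548 and 576 CPM in wtIDH1 CD8 T cells. Paired within libraries, Gzma was higher in NK cells than in CD8 T cells by 2.63 ± 0.32 (log2 fold change ± SE, edgeR quasi-likelihood test, adjusted p = 1.06e-06, higher in 4 of 4 libraries). Prf1 was higher by 1.40 ± 0.17 (adjusted p = 7.8e-07) and Serpinb9 by 1.72 ± 0.23 (adjusted p = 3.58e-06). Gzmk, which marks a T cell subset with memory features, had a log2 fold change of -3.51 ± 0.33 (adjusted p = 2.37e-08) and was thus lower in NK cells. Of the 7 members that passed the filter on low counts, 4 were higher and 2 were lower in NK cells, where 37.7% of all 7479 genes tested were called. The 2 lower members, Gzmk and Gzmf, passed that filter only through CD8 T cells. Their direction was thus nearly set by the filter and adds no support to this count.

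For Gzmb, the most studied inducer of apoptosis among the granzymes, the difference between the classes was smaller. Gzmb stood at 2390 and 3243 CPM in mIDH1 NK cells and at 2165.9 and 1072 CPM in wtIDH1 NK cells, against 1384 and 540.0 CPM in mIDH1 CD8 T cells and 1867 and 1480 CPM in wtIDH1 CD8 T cells. NK cells were higher in 3 of 4 libraries, and the log2 difference of 0.66 ± 0.26 did not pass the test (adjusted p = 0.0531). The Gzmc difference of 1.21 ± 0.39 passed (adjusted p = 0.0185) but not without wtIDH1 library 1 (0.79, adjusted p = 0.182) or library 2 (0.49, adjusted p = 0.338), nor under a mitochondrial limit of 5% (0.25, adjusted p = 0.755) or DESeq2 (adjusted p = 0.339). Gzmf was lower in NK cells by a log2 fold change of -2.04 ± 0.43 (adjusted p = 0.000667). Its fold moved between -1.43 and -4.78 over the alternatives and was called in all 10 of them. Gzmf passed the filter on low counts only through CD8 T cells, so the direction of these calls was nearly set by the filter.

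**Figure D1:**
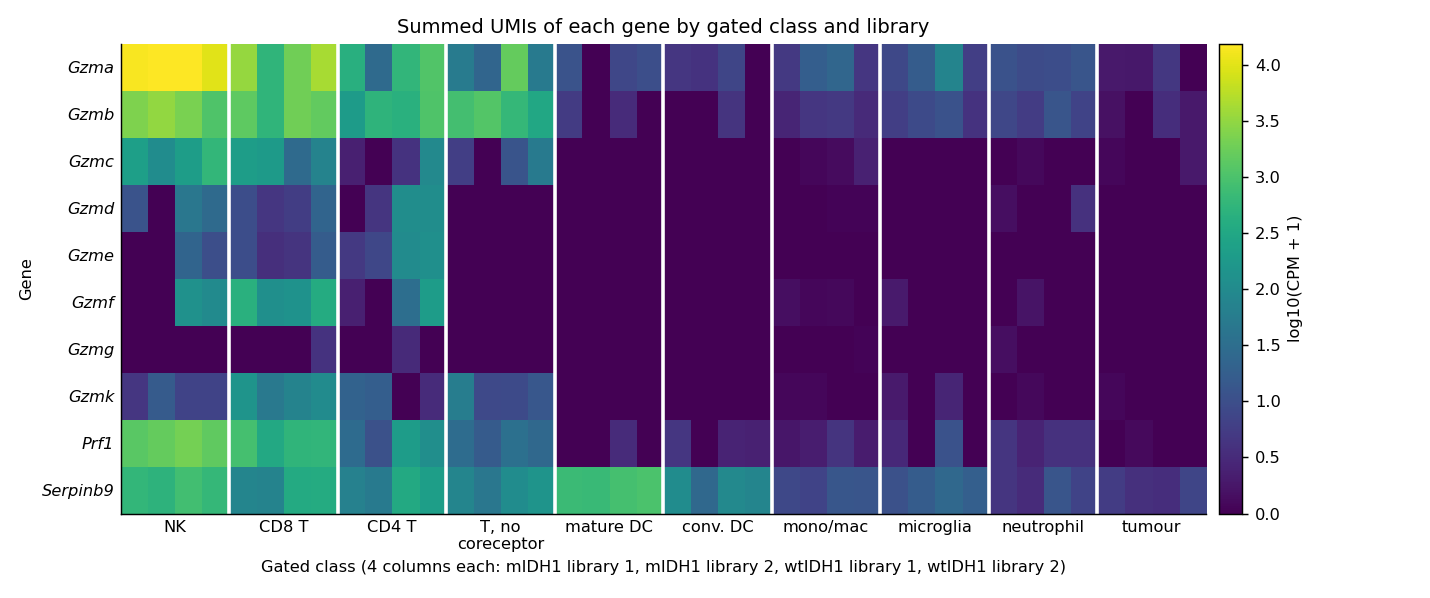
Levels of the 10 genes, as log10(CPM + 1) of the summed UMIs, in 10 gated classes with the 4 libraries side by side (mIDH1 1, mIDH1 2, wtIDH1 1, wtIDH1 2). Gzma and Prf1 were highest in NK cells and Serpinb9 in NK cells and mature dendritic cells, CD8 T cells held 80.2% of the Gzmk UMIs, and the myeloid and tumour classes held Gzma at no more than 77.6 CPM.

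CD8 T cells were the main source of Gzmk, Gzmf and Gzmb UMIs. Of all UMIs of the gene in the kept cells, they held 80.2% for Gzmk, 73.4% for Gzmf, 50.9% for Gzmb, 49.1% for Prf1, 42.1% for Gzmc and 33.3% for Gzma. Gzmk stood at 145 and 47.7 CPM in mIDH1 CD8 T cells and at 71.9 and 105 CPM in wtIDH1 CD8 T cells, with at most 15 CPM in NK cells. Against CD4 T cells of the same libraries, CD8 T cells were higher in all 7 members that could be tested, where 24.7% of all 8018 genes were called. Of these members, Gzmk, Gzmf and Gzmc passed the filter on low counts only through CD8 T cells. Their direction was thus nearly set by the filter and adds no support to this count. The log2 fold changes were 3.60 ± 0.39 for Gzmk, 2.92 ± 0.40 for Prf1, 2.63 ± 0.54 for Gzmf, 2.58 ± 0.67 for Gzmc, 2.5 ± 0.23 for Gzma and 1.45 ± 0.32 for Gzmb, with adjusted p from 5.06e-06 to 0.0115 (edgeR). Serpinb9 differed least (0.44 ± 0.14, adjusted p = 0.0355), and its call was lost without mIDH1 library 2 (adjusted p = 0.0805), without wtIDH1 library 2 (adjusted p = 0.231), with DESeq2 (adjusted p = 0.102) and with scaling by totals (adjusted p = 0.0904). The Gzmc call was lost without mIDH1 library 2 (2.14, adjusted p = 0.0764) and the Gzmb call with DESeq2 (adjusted p = 0.0783). Gzmd, Gzme and Gzmg were not tested here and need not share this direction. Before thinning, 0% and 1.49% of mIDH1 and 4.06% and 2.78% of wtIDH1 CD4 T cells held both Gzmd and Gzme. In CD8 T cells the shares were 1.67% and 0.781% in mIDH1 and 0.704% and 1.35% in wtIDH1, higher than in CD4 T cells only in mIDH1 library 1.

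Cycling CD8 T cells, those with 2 or more UMIs of Mki67 and Top2a, numbered 83 and 26 in mIDH1 and 49 and 84 in wtIDH1. They held slightly more Gzma (0.38 ± 0.10, adjusted p = 0.00222) and Gzmb (0.37 ± 0.10, adjusted p = 0.0039) than the non-cycling CD8 T cells of the same libraries, in edgeR's log2 fold changes. Cycling cells were higher for Gzma in 3 of 4 libraries and for Gzmb in 3 of 4. Of the 7 members tested, 3 were called higher and none lower, where 31.6% of the 6972 genes tested were called. The Gzma call was lost without mIDH1 library 2 or wtIDH1 library 1 (adjusted p = 0.0792 and 0.0912), and the Gzmb call without mIDH1 library 1 or wtIDH1 library 1 (adjusted p = 0.0624 and 0.156). The Gzmc difference (0.92 ± 0.33, adjusted p = 0.0285) turned to -0.14 without mIDH1 library 2, where 1 cycling cell held 127 of its 203 UMIs. None of the 3 calls was made by DESeq2 (adjusted p = 0.346, 0.388 and 0.598). Prf1 differed by -0.09 ± 0.10 (adjusted p = 0.56) and Gzmk by -0.21 ± 0.15 (adjusted p = 0.318).

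Within CD4 T cells, the Gzmb level was higher in Foxp3 positive than in Foxp3 negative cells of every library. Cells with a Foxp3 UMI, the transcription factor of regulatory T cells, held Gzmb at 661 and 2282 CPM in mIDH1 and at 2316 and 2462 CPM in wtIDH1. Foxp3 negative CD4 T cells held it at 64.8 and 215 CPM in mIDH1 and at 156 and 801 CPM in wtIDH1. Thinned to 1000 UMIs per cell, 50% and 55.6% of Foxp3 positive cells in mIDH1 and 64.3% and 68.4% in wtIDH1 held a Gzmb UMI, against 3.77% and 6.90% of Foxp3 negative cells in mIDH1 and 8.33% and 8.99% in wtIDH1. Prf1 stood at 22.9 to 47.2 CPM in Foxp3 positive cells. At the same depth Prf1 was read in 5.88% and 11.1% of mIDH1 and 15.6% and 9.52% of wtIDH1 CD4 T cells with Gzmb, against 1.74% and 0% in mIDH1 and 7.93% and 2.30% in wtIDH1 without Gzmb. Foxp3 positive cells numbered 26 and 9 in mIDH1 and 28 and 19 in wtIDH1, under the 20 cells per library set for a test, so these are values without a test. Gzmd, Gzme and Gzmf had no UMI in any of the 82 Foxp3 positive cells.

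Outside the gated killer cells, Gzmb was read with little Prf1 in 2 further classes. T cells with neither coreceptor UMI, which held Foxp3 at 427 and 256 CPM in mIDH1 and at 288 and 75.7 CPM in wtIDH1, had Gzmb at 845 and 1176 CPM in mIDH1 and at 614 and 322 CPM in wtIDH1, and Prf1 at 14.6 to 34.1 CPM. In mIDH1 libraries, 52 and 23 basophils and mast cells held Gzmb at 951 and 578 CPM, and 1 Prf1 UMI in all. The 4 and 1 such cells of the wtIDH1 libraries are too few to compare. Monocytes and macrophages set the background, with Gzmb at 1.75 and 3.61 CPM in mIDH1 and at 3.86 and 2.09 CPM in wtIDH1, and with a Gzmb UMI in 0.171 to 0.643% of cells thinned to 1000 UMIs. Among the 6 to 18 T cells with NK receptors per library, Gzma stood at 4398 and 2350 CPM in mIDH1 and at 12395 and 5438 CPM in wtIDH1, where 1 cell of library 1 held 1135 of the 2123 UMIs. In gamma delta T cells of wtIDH1 library 1, 169 Gzmc UMIs were read, and none in the gamma delta T cells of the other libraries.

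The granzymes of the chromosome 14 cluster other than Gzmb were read in few cells and in large amounts per cell. The 10 cells with the most UMIs of a gene held 52.5% of the Gzmc, 48.8% of the Gzmf, 74.5% of the Gzmd and 66.5% of the Gzme UMIs, against 9.21% for Gzma, 11.9% for Gzmb, 13.2% for Gzmk, 6.88% for Prf1 and 5.53% for Serpinb9. The highest Gzmc count (207 UMIs) and the highest Gzmf count (269 UMIs) were each read in a CD8 T cell of mIDH1 library 1 with 21557 UMIs in all. Of the 96 Gzmg UMIs in the series, 85 came from 1 cell of wtIDH1 library 2 that passed no gate and also held 162 of the 483 Gzmd UMIs. In all, 108 cells held 5 or more UMIs of at least 1 of Gzmc to Gzmg, and 35 of them were CD8 T cells of mIDH1 library 1. Gzmd and Gzme, whose separate counts are uncertain, came together in 12 of the 20 cells with 5 or more Gzmd UMIs and 12 of the 15 with 5 or more Gzme UMIs. Gzmc and Gzmf shared 26 cells, of 62 and 61, so most of the cells rich in either lacked 5 UMIs of the other. They still met often: before thinning, 54.4% and 25% of mIDH1 and 35.7% and 40% of wtIDH1 CD8 T cells with Gzmc held Gzmf. Without Gzmc the shares were 7.12% and 2.5% in mIDH1 and 1.56% and 3.47% in wtIDH1. Fold changes of these genes thus rest on few cells, which are not replicates.

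**Figure D2:**
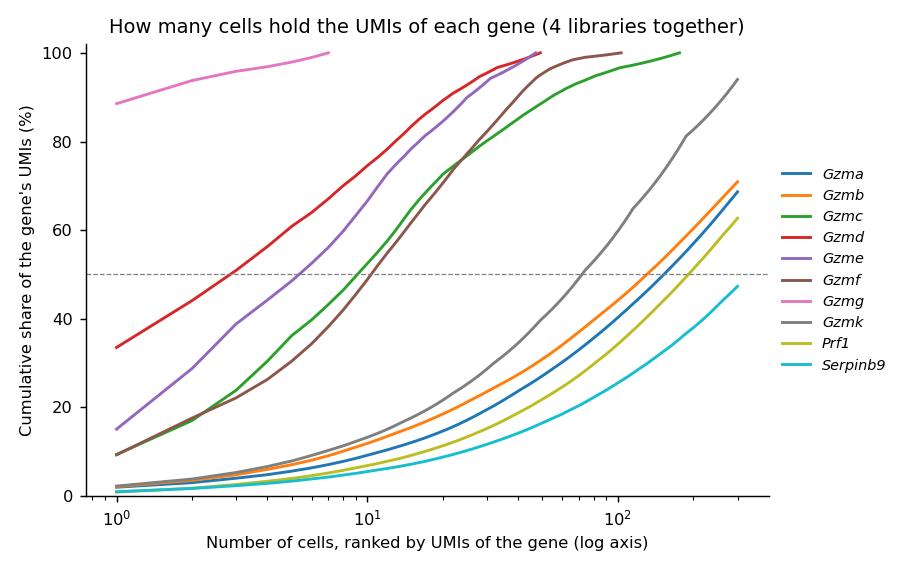
Cumulative share of each gene's UMIs (y axis, %) held by its highest cells (x axis, number of cells, log axis), over the 4 libraries together. The dashed line is at 50%; the curves of Gzmc, Gzmd, Gzme, Gzmf and Gzmg cross it within 11 cells, those of Gzmk and the others at 72 cells or more.

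Granzyme and perforin UMIs met in the same cells most often in NK cells. With every cell thinned to 1000 UMIs, 63.6% and 58.9% of NK cells in mIDH1 and 68.8% and 64.0% in wtIDH1 held both a granzyme and a Prf1 UMI. In CD8 T cells the shares were 25.1% and 16.4% in mIDH1 and 17.6% and 23.0% in wtIDH1, and the groups overlapped. A further 17.1% and 12.5% of mIDH1 CD8 T cells and 9.86% and 9.46% of wtIDH1 CD8 T cells held Prf1 without a granzyme, against at most 2% of NK cells. A granzyme without Prf1 was held by 30.3% and 40.2% of NK cells in mIDH1 and by 26.0% and 27% in wtIDH1. In CD8 T cells these shares were 29.1% and 18.75% in mIDH1 and 28.9% and 33.8% in wtIDH1. In T cells with neither coreceptor, 34.5% and 27.8% in mIDH1 and 33.8% and 17.6% in wtIDH1 held a granzyme without Prf1. Monocytes and macrophages held both a granzyme and a Prf1 UMI in at most 0.166% of cells. In NK cells, Gzma and Prf1 were read together in 63.6% and 58.9% in mIDH1 and 66.9% and 63% in wtIDH1. The shares expected from the frequency of each gene alone were 58.8% and 56.7% in mIDH1 and 64.7% and 56.8% in wtIDH1. In CD8 T cells 13.0% and 7.81% in mIDH1 and 10.6% and 10.4% in wtIDH1 held both. There 13.4% and 3.61% in mIDH1 and 6.58% and 8.62% in wtIDH1 were expected.

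Among CD8 T cells at this depth, Gzmb was read in 60% and 37.5% of cells with a Gzma UMI in mIDH1, against 27.9% and 20.5% of cells without one. In wtIDH1 the shares were 73.5% and 71.2% with Gzma, against 25.9% and 34.4% without, so the direction was the same in 4 of 4 libraries. Gzmk was likewise read more often in CD8 T cells with Gzma, in 29.5% and 12.5% in mIDH1 and 11.8% and 25.4% in wtIDH1, against 7.84% and 2.68% in mIDH1 and 6.48% and 8.59% in wtIDH1 without Gzma. Serpinb9 was read in 5.26% and 3.45% of mIDH1 and 22.6% and 29.6% of wtIDH1 CD8 T cells with Gzmb, against 8.11% and 8.08% in mIDH1 and 22.5% and 26.6% in wtIDH1 without. Before thinning, the Serpinb9 shares were 32.8% and 35.7% in mIDH1 and 69.1% and 71.3% in wtIDH1 with Gzmb, against 27.3% and 34.7% in mIDH1 and 42.6% and 40.3% in wtIDH1 without. These shares describe cells of 1 library each and carry no test.

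**Figure D3:**
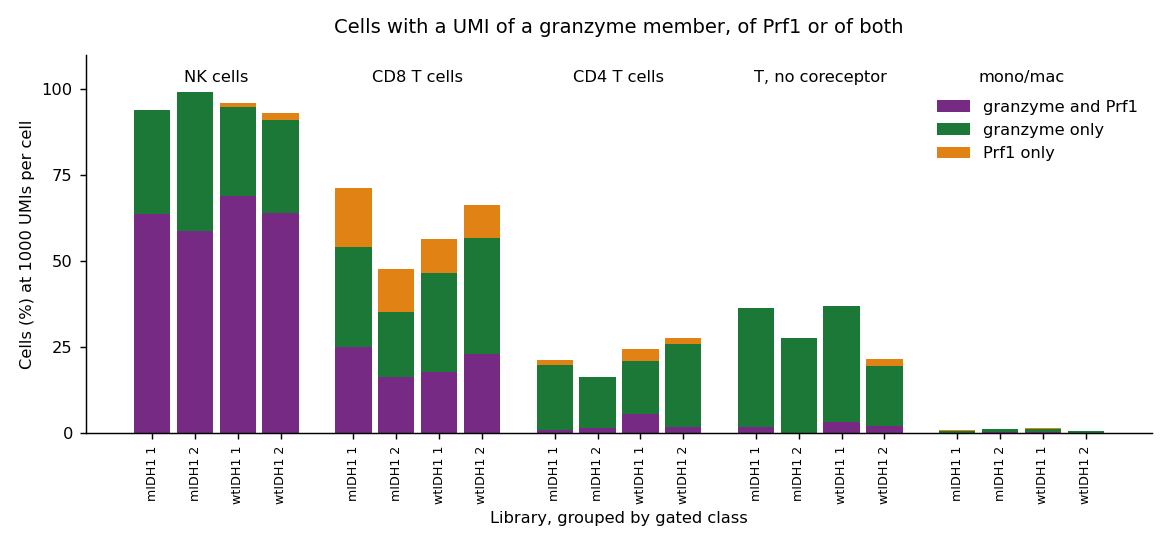
Shares of cells (y axis, %) that held a UMI of any of the 8 granzymes and of Prf1, of a granzyme only or of Prf1 only, after thinning to 1000 UMIs per cell, for each library in 5 gated classes. Between 58.9% and 68.8% of NK cells held both, against 16.4 to 25.1% of CD8 T cells. A granzyme alone was held by 26.0 to 40.2% of NK cells, 18.75 to 33.8% of CD8 T cells and 17.6 to 34.5% of T cells with neither coreceptor.

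Serpinb9 was spread over lymphocytes and mature dendritic cells. In NK cells it stood at 580 and 513 CPM in mIDH1 and at 835 and 616 CPM in wtIDH1. In mature dendritic cells, gated on Ccr7, Fscn1, Ccl22 and Il4i1, it stood at 704 and 682 CPM in mIDH1 and at 895 and 989 CPM in wtIDH1, against 108 and 25.2 CPM in mIDH1 and 93.8 and 78.9 CPM in wtIDH1 conventional dendritic cells. Mature dendritic cells exceeded conventional ones in every library, by 3.53 ± 0.24 on the log2 scale (edgeR, adjusted p = 5.94e-08; all 9 alternatives called), in a comparison added after the data were seen in which 43.9% of the 5518 genes tested were called (21.3% higher). Serpinb9 was the only member that passed the filter there, and the dendritic cells held at most 5 UMIs of Gzma and 2 of Gzmb per library. After thinning, 48.6% and 43.3% of mature dendritic cells in mIDH1 and 54.8% and 54.7% in wtIDH1 held a Serpinb9 UMI, and 47.1% and 43.3% in mIDH1 and 53.4% and 54.7% in wtIDH1 held one with no granzyme UMI. Monocytes and macrophages, at 7.21 and 6.07 CPM in mIDH1 and 12.4 and 11.7 CPM in wtIDH1, held little Serpinb9, and neutrophils held 2.24 to 11.6 CPM.

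**Figure D4:**
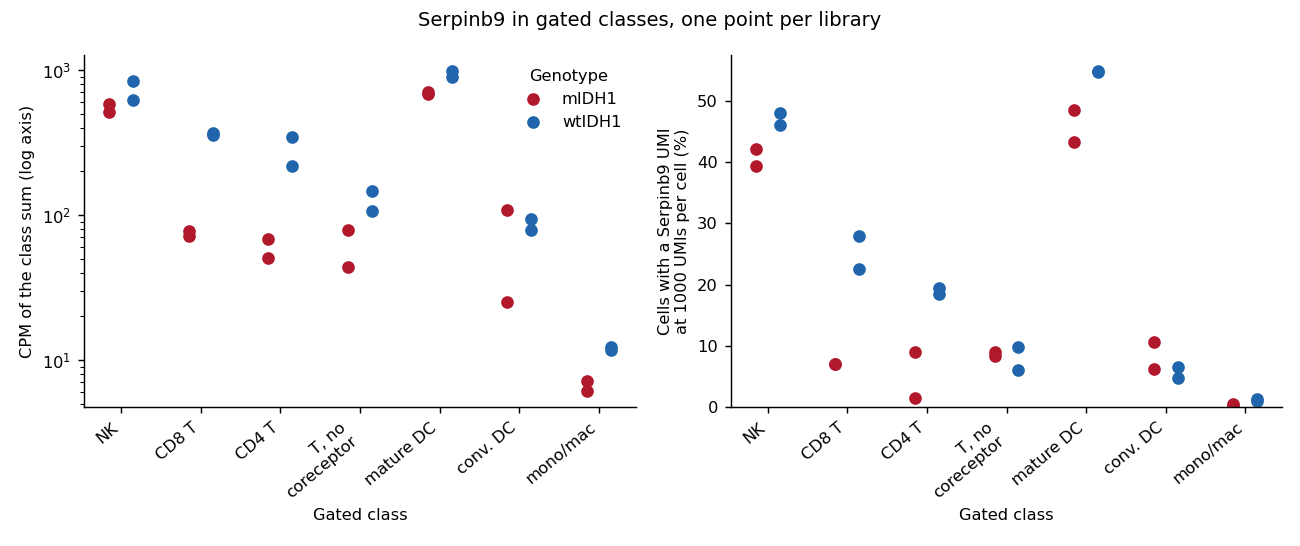
Serpinb9 by gated class, as CPM of the class sum (left, log axis) and as the share of cells with a UMI after thinning to 1000 UMIs (right, %), with 1 point per library in red for mIDH1 and blue for wtIDH1. In CD8 T cells both mIDH1 points lie at 77.9 CPM or below and both wtIDH1 points at 356 CPM or above, while the points of NK cells lie within 513 to 835 CPM.

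Between genotypes, Serpinb9 was called in both T cell classes in all 12 alternatives run in each. In CD8 T cells it stood at 77.9 and 72.0 CPM (212 and 80 UMIs) in mIDH1 and at 356 and 369 CPM (441 and 597 UMIs) in wtIDH1. Both mIDH1 libraries lay below both wtIDH1 libraries. Serpinb9 fell in mIDH1 CD8 T cells by a log2 fold change of -2.0 ± 0.19 (edgeR quasi-likelihood test, adjusted p = 0.00137, n = 2 libraries a group), and it was called in 12 of 12 alternatives, at -2.34 to -1.81 and with adjusted p of at most 0.0321. Thinned to equal depth, 7.02% and 7.03% of mIDH1 CD8 T cells held a Serpinb9 UMI, against 22.5% and 27.9% of wtIDH1 CD8 T cells, and in monocytes and macrophages 0.597% and 0.161% in mIDH1 and 1.32% and 1.03% in wtIDH1. Before thinning, the CD8 T cell shares were 30.8% and 35.2% in mIDH1 and 57.7% and 61.3% in wtIDH1, at median depths of 7345 and 6845 UMIs in mIDH1 and 6292 and 5914 UMIs in wtIDH1. Cycling and non-cycling cells gave the same order of the groups, with 61.6 and 52.2 CPM in cycling mIDH1 and 343 and 370 CPM in cycling wtIDH1 cells, and with 91.3 and 84.1 CPM in non-cycling mIDH1 and 375 and 369 CPM in non-cycling wtIDH1 cells.

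Of the 9 members tested in CD8 T cells, Serpinb9 was called lower and Gzmc higher in mIDH1, where 4.79% of all 8644 genes tested were called (3.52% higher, 1.27% lower). The Gzmc call (2.22 ± 0.32, adjusted p = 0.00711) rested on 570 and 207 UMIs in mIDH1, of which 1 cell each held 207 and 127, against 33 and 119 UMIs in wtIDH1. It was lost in non-cycling cells alone (1.32, adjusted p = 0.286), and the shares of cells with a Gzmc UMI after thinning were 3.68% and 3.12% in mIDH1, against 2.82% and 2.70% in wtIDH1. The other 7 members did not pass, with edgeR's log2 fold changes of -0.49 ± 0.55 for Gzma (adjusted p = 0.643), -0.55 ± 0.31 for Gzmb (adjusted p = 0.319), 0.39 ± 0.46 for Gzmf (adjusted p = 0.66), 0.43 ± 0.34 for Gzmk (adjusted p = 0.48) and 0.37 ± 0.30 for Prf1 (adjusted p = 0.507). Gzma, Gzmf, Gzmk and Prf1 overlapped between genotypes, whereas Gzmb was lower in both mIDH1 libraries. The values moved with the mIDH1 library left out, in fits that leave 1 library in that group and so give sizes only. Without mIDH1 library 1, the log2 fold change was -2.13 for Gzma and -1.24 for Gzmb. Without mIDH1 library 2, it was 0.84 for Prf1, 0.88 for Gzmk and 0.96 for Gzmf. Gzmf stood at -0.72 without mIDH1 library 1. CPM that did not overlap between genotypes was common, at 61.8% of the genes tested in CD8 T cells.

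In CD4 T cells more of the members were called, and all but 1 of these calls were lower in mIDH1. Serpinb9 stood at 68.7 and 50.2 CPM in mIDH1 and at 347 and 217 CPM in wtIDH1, and fell by a log2 fold change of -2.02 ± 0.27 (edgeR, adjusted p = 6.55e-05), called in 12 of 12 alternatives at -2.32 to -1.61. Prf1 stood at 28.5 and 10.0 CPM in mIDH1 and at 201 and 115 CPM in wtIDH1, and fell by -2.66 ± 0.36 (adjusted p = 6.73e-05), but not under a mitochondrial limit of 5% (-2.46, adjusted p = 0.0916). The wtIDH1 Prf1 UMIs came from 34 and 8 cells, of which 1 each held 40 of 190 and 36 of 50. Of the 8 members tested, 5 were called lower and 1 higher, where 5.21% of all 7002 genes tested were called (1.29% lower, 3.93% higher). Gzmd, Gzme and Gzmf passed the filter on low counts only through wtIDH1, and Gzmk only through mIDH1. Their calls were thus nearly set by the filter and add no support to this count. Gzmd and Gzme were also read largely in the same cells. In Foxp3 negative CD4 T cells alone Serpinb9 stood at 83.1 and 58.7 CPM in mIDH1 and at 392 and 227 CPM in wtIDH1 (-1.90, adjusted p = 0.00275), an alternative added after the data were seen.

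The granzymes Gzmd, Gzme and Gzmf were nearly absent from mIDH1 CD4 T cells. Gzmd gave 0 and 1 UMIs in mIDH1 and 105 and 49 UMIs in wtIDH1 CD4 T cells, the wtIDH1 UMIs in 9 and 4 cells, and was 119-fold lower in mIDH1 (95% counting interval 21.1 to 4.74e+03; edgeR adjusted p = 2.6e-06). Gzme gave 3 and 2 UMIs in mIDH1 and 96 and 52 UMIs in wtIDH1, and fell by a log2 fold change of -4.30 ± 0.45 (adjusted p = 5.02e-06). Gzmf gave 1 and 0 UMIs in mIDH1 and 30 and 89 UMIs in wtIDH1, where 1 cell held all 30 and another 80 of the 89, and was 92.2-fold lower (interval 16.2 to 3.67e+03; adjusted p = 0.00089). Gzmk ran the other way, with 15 and 5 UMIs in mIDH1 and 0 and 1 UMI in wtIDH1, a 25.8-fold difference (interval 4.13 to 1.07e+03; adjusted p = 0.00506) on 20 UMIs against 1. Gzmd, Gzme, Gzmf and Gzmk each passed the filter on low counts only through the genotype in which they were higher. Their calls were thus nearly set by the filter, and their adjusted p-values add no support. The intervals treat every UMI as an independent draw, so they are too narrow where single cells held most of the UMIs. They also leave out the spread between libraries. Gzma stood at 433 and 26.8 CPM in mIDH1 and at 566 and 1107 CPM in wtIDH1, without overlap, as for 53.8% of the genes tested in CD4 T cells, and its change of -1.55 ± 0.47 did not pass (adjusted p = 0.0592).

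In NK cells Serpinb9 and Prf1 did not pass the test between genotypes. Serpinb9 CPM was lower in both mIDH1 libraries than in either wtIDH1 library, and Prf1 overlapped. The log2 fold change of Serpinb9 was -0.22 ± 0.19 (edgeR, adjusted p = 0.577) and that of Prf1 -0.08 ± 0.20 (adjusted p = 0.88). Gzmb was higher in both mIDH1 libraries, where 53.9% of the genes tested in NK cells did not overlap between genotypes, and passed at 1.0 ± 0.26 (adjusted p = 0.0344). It was called in 6 of 11 alternatives and lost, among others, with gates of 1 or more UMIs (adjusted p = 0.0572) and with DESeq2 (adjusted p = 0.385). The Gzmb call was also lost without wtIDH1 library 1 (1.62), where every call was lost, and without library 2 (0.59). These fits leave 1 library in that group. Gzma changed by 0.45 ± 0.20 (adjusted p = 0.238) and Gzmc by -1.09 ± 0.38 (adjusted p = 0.12). Gzmf gave 0 UMIs in both mIDH1 libraries and 68 and 33 UMIs in wtIDH1, each from 1 cell. That put Gzmf at least 26.8-fold lower in mIDH1 against a floor of 3 counts over the group (edgeR, adjusted p = 0.000213). Gzmf passed the filter on low counts only through wtIDH1. The call thus rests on 1 cell per wtIDH1 library and describes no shift across NK cells. Without wtIDH1 library 1 this call was lost, as was every call in that fit. Of the 6 members tested, 1 was called higher and 1, Gzmf, lower, where 4.39% of all 5396 genes tested were called (3.63% higher, 0.76% lower). NK cells made up 1.81% and 3.05% of mIDH1 cells and 5.04% and 3.36% of wtIDH1 cells (exact two-sided permutation test, p = 0.333, the smallest that 2 libraries against 2 allow).

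**Figure D5:**
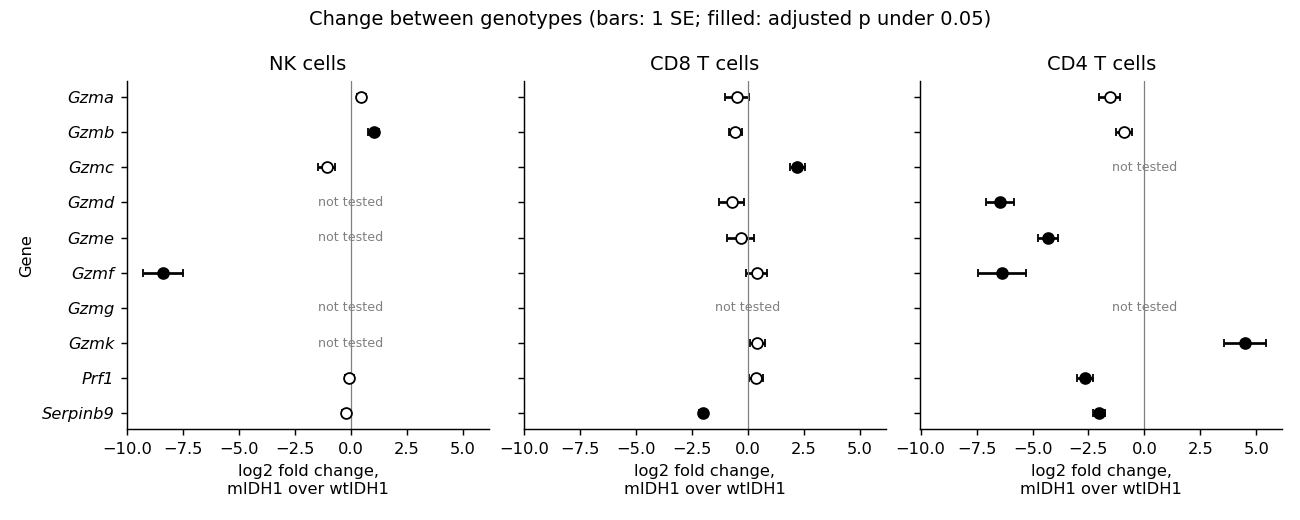
Log2 fold change of each gene (x axis, mIDH1 over wtIDH1, bars 1 SE) in NK cells, CD8 T cells and CD4 T cells, filled where the adjusted p was under 0.05. Serpinb9 stands at -2.0 in CD8 T cells and -2.02 in CD4 T cells and at -0.22 in NK cells; the Gzmf value in NK cells, where mIDH1 held 0 UMIs, depends on the prior count and is no estimate of size.

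The genotype change was compared directly between NK cells and CD8 T cells in 1 fit with an interaction term. The Serpinb9 change was higher in NK cells by 1.82 ± 0.22 (log2, edgeR, adjusted p = 4.47e-05), and this difference was called in 11 of 11 alternatives, at 1.59 to 2.16. The Gzmc change differed by -3.35 ± 0.27 (adjusted p = 1.17e-07), also called in 11 of 11, and the Gzmb change by 1.73 ± 0.33 (adjusted p = 0.0204). The Gzmc difference rests on few cells, since 10 cells held 52.5% of the Gzmc UMIs in the series, and the alternatives mostly reuse them. Its change in NK cells alone did not pass in edgeR (-1.09 ± 0.38, adjusted p = 0.12). The Gzmb difference was lost without mIDH1 library 2 (0.82, adjusted p = 0.121) and with DESeq2 (adjusted p = 1). Of the 9 members tested, 2 differed upward and 2 downward, where 0.238% of the 8389 genes tested were called (0.131% upward, 0.107% downward). In mature dendritic cells, a fit added after the data were seen, Serpinb9 changed by -0.26 ± 0.26 (adjusted p = 0.72), where 0.166% of 5427 genes were called (0.0184% lower). Its levels did not overlap between genotypes, as for 49.6% of the genes tested there. Over all cells together Serpinb9 stood at 41.2 and 32.2 CPM in mIDH1 and at 112 and 89.6 CPM in wtIDH1 (-1.29 ± 0.17, adjusted p = 0.0197, 14.1% of 13673 genes called). Of the 9 members tested there, 3 were called lower, Serpinb9, Gzmd and Gzme, and none higher (5.26% of all genes lower, 8.86% higher). Without mIDH1 library 2 their log2 fold changes were -1.26, -2.84 and -2.41 in that order. The 3 calls were lost in that fit, as was every lower call, so the loss was not particular to these genes.

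Serpinb6b, a serpin of the same chromosome 13 region, moved with Serpinb9. It stood at 98.4 and 140 CPM in mIDH1 CD8 T cells and at 380 and 459 CPM in wtIDH1 CD8 T cells (-1.54 ± 0.24, edgeR, adjusted p = 0.00851). In CD4 T cells it stood at 96.0 and 36.8 CPM in mIDH1 and at 421 and 388 CPM in wtIDH1 (-2.27 ± 0.27, adjusted p = 1.97e-05). The groups did not overlap in either class. In the list of 15 other granzymes, inhibitors and processing genes, it alone was called lower in CD8 T cells (of 5 tested) and in CD4 T cells (of 7 tested). Their transcripts shared 64.9% of aligned bases with a longest common run of 17, well under that of the granzyme cluster's closest pairs. Cst7, which encodes cystatin F, an inhibitor of the cathepsin that activates granzymes, was higher in mIDH1 CD8 T cells (232 and 244 CPM in mIDH1, 134 and 142 CPM in wtIDH1; 1.06 ± 0.19, adjusted p = 0.0142), as was the granule proteoglycan gene Srgn (0.95 ± 0.22, adjusted p = 0.031).

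Several other effector genes of killer cells were higher in mIDH1 CD8 T cells. Of the 9 other effectors, all tested, 4 were called higher and none lower, beside 3.52% higher over all genes (median log2 fold change 1.09, against 0.00 over all genes). They were the chemokine gene Ccl5 (1.98 ± 0.24, adjusted p = 0.00407), the death ligand gene Tnfsf10 (1.33 ± 0.25, adjusted p = 0.0145), the cytokine gene Ifng (1.09 ± 0.22, adjusted p = 0.0185) and the chemokine gene Ccl3 (0.85 ± 0.21, adjusted p = 0.043) in edgeR's test. The calls were lost in 1, 1, 3 and 4 of 12 alternatives in that order. The neutrophil marker S100a8 stood at 24.2 and 71.1 CPM in mIDH1 and at 0.808 and 16.1 CPM in wtIDH1 CD8 T cells, and at 69.3 and 137.5 CPM in mIDH1 and 0 in both wtIDH1 libraries in NK cells, while Lyz2 overlapped between genotypes in CD8 T cells. Over all cells Ccl3 stood at 942 and 1483 CPM in mIDH1 and at 291 and 289 CPM in wtIDH1, and Srgn at 2633 and 5116 CPM in mIDH1 and at 1389 and 967 CPM in wtIDH1. The part of such RNA in the Ccl3 and Srgn calls was not tested. Nkg7, whose product acts in granule release, stood at 2004 and 2480 CPM in mIDH1 and at 1104 and 1219 CPM in wtIDH1 CD8 T cells (1.24 ± 0.24, adjusted p = 0.015), the 1 gene called of 16 granule transport genes tested. Of 15 transcription factors Batf was called higher (1.07 ± 0.27, adjusted p = 0.0389), of 10 cytokine receptors Il18rap (0.82 ± 0.20, adjusted p = 0.037), and of 12 cell cycle genes and 12 granzyme substrates and death effectors none. In NK cells 1 of 7 effectors (Ccl5), 1 of 14 granule transport genes (Nkg7) and Srgn of the 5 inhibitors and processing genes were called, all higher in mIDH1, beside 3.63% higher over all genes. Nothing is read from single calls in lists of this size. In CD4 T cells Fasl was lower (-1.01 ± 0.26, adjusted p = 0.0265) and Ccl5 higher (1.29 ± 0.36, adjusted p = 0.0332), calls that held in only 5 and 4 of 12 alternatives. The median log2 fold change of all genes stood at -0.260 in CD8 T cells, -0.226 in NK cells and -0.203 in CD4 T cells with scaling by library totals, against 0.00, -0.022 and -0.017 with TMM. With library totals 206 genes were called higher and 562 lower in mIDH1 CD8 T cells, against 304 and 110 with TMM.

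Across 43 sums of 12 classes with 20 or more cells, the genes with a pattern most like each member were ranked by Pearson's r of log2(CPM + 1) among 6517 genes. The sums share libraries and depth, so r is a description. Gzma and Prf1 were each other's nearest gene (r = 0.952), and Fasl, Ctsw, Nkg7 and Klrc2 were the next 4 for both. Gzmb was nearest to Prkcq (r = 0.960), Sytl3, Skap1 and Nkg7. Gzmk, itself under the minimum of 20 CPM set for the compared genes, was nearest to Abcb9 (r = 0.841), Sh2d1a, Cd96, Nkg7 and Skap1. Serpinb9 was nearest to Serpinb6b (r = 0.903), ahead of Il12rb2 (0.875), Adora2a (0.856), Klrk1 (0.852) and Klrd1 (0.811), and its r with Gzma, Gzmb and Prf1 was 0.61, 0.41 and 0.59.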

How the data were processed

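The single-cell libraries of 4 samples were deposited as UMI count matrices per gene and barcode, unnormalized; per the labels and the submitters' processing notes they were made with Cell Ranger 3.1 and aligned to mm10, while the matrix headers name version 3.0.0. The members and gene lists were chosen with earlier results of these data known. Cells with 200 or more genes and at most 10% mitochondrial UMIs were kept, and the highest Scrublet scores were removed at 0.8% per 1000 barcodes, since its automatic threshold marked only 1 to 3 barcodes per library (scanpy 1.11.5, Python 3.11.15). Kept libraries held 26371638 and 19050343 UMIs (mIDH1) and 21623691 and 20673547 UMIs (wtIDH1). Classes were gated on marker UMIs, not taken from a deposited annotation. Sums of classes with 20 or more cells per library were tested with edgeR 4.0.16 (TMM, filterByExpr, quasi-likelihood F test, R 4.3.3), with p-values adjusted over all genes tested by Benjamini-Hochberg and a threshold of 0.05; class contrasts had the library as a block. Shares were computed after thinning cells to 1000 UMIs and leaving out shallower cells. Named genes were all 10 members, up to 4 called genes per list and comparison with the lowest p, and the 5 genes most like a member, of which 1 is not reported here. Alternatives were DESeq2 1.42.0, library totals, no count filter, at most 5% mitochondrial UMIs, doublets kept, gates of 1 or more UMIs, each library left out and a replicate block.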

Additional observations from a re-analysis of the deposited data

Results flagged for a closer look

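The genotype change differed between NK cells and CD8 T cells for 4 members, by the interaction term of a fit over both classes in edgeR. The change in NK cells minus that in CD8 T cells was 1.82 for Serpinb9, 1.73 for Gzmb, -3.35 for Gzmc and -10.17 for Gzmf on the log2 scale. The Gzmc value rests on few cells with many UMIs each. The Gzmf value depends on the prior count, since mIDH1 NK cells held 0 Gzmf UMIs, and DESeq2 did not call it (adjusted p = 0.097). The wtIDH1 NK cells' Gzmf UMIs came from 1 cell in each library.

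Cells that passed no gate, 1874 in all and used in no comparison but the sums over all cells, also held granzyme UMIs. Their lowest level over the 4 libraries was 663 CPM for Gzma, 90.4 CPM for Gzmb, 3.83 CPM for Gzmc and 61.9 CPM for Prf1, above the monocytes and macrophages of the same libraries. With 5 or more Gzma UMIs there were 29 and 27 such cells in mIDH1 and 113 and 78 in wtIDH1. Of these, 12 and 12 in mIDH1 and 53 and 37 in wtIDH1 held 1 UMI of the NK gate genes, below the gate's minimum, and 11 and 4 in mIDH1 and 40 and 30 in wtIDH1 held neither an NK nor a T cell gate UMI. With gates of 1 or more UMIs, the Serpinb9 calls in CD8 and CD4 T cells were made as well.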

How the results depend on the processing

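Over the members tested in each class comparison and, over all cells, the 3 called members, 518 values under an alternative kept their direction and side of the threshold, 33 lost and 33 gained a call, and 19 changed direction, all of these 19 with a library left out. Over all cells, the 6 members not called also changed sign in at least 1 alternative, at -0.58 to 0.36 (Gzma), -0.40 to 0.48 (Gzmb), -0.61 to 0.24 (Gzmc), -0.99 to 1.15 (Gzmf), -0.58 to 1.72 (Gzmk) and -0.48 to 0.52 (Prf1). Genes called numbered 237 in NK cells (DESeq2 113), 414 in CD8 T cells (library totals 768, no count filter 885, at most 5% mitochondrial UMIs 273), 365 in CD4 T cells (DESeq2 162, library totals 190, at most 5% mitochondrial UMIs 146), 1931 over all cells (DESeq2 2946) and 9 in mature dendritic cells (DESeq2 70, no count filter 167). They numbered 2816 between NK and CD8 T cells (DESeq2 1762, at most 5% mitochondrial UMIs 1508), 1981 between CD8 and CD4 T cells (DESeq2 1143, at most 5% mitochondrial UMIs 1097), 2203 between cycling and non-cycling CD8 T cells (DESeq2 1004) and 20 for the interaction (DESeq2 3, no count filter 48, gates of 1 or more UMIs 49). The CD8 T cell share differed by -0.13 points between mIDH1 and wtIDH1, and by 3.18 points with at most 5% mitochondrial UMIs. The causes were not tested.

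With each library left out in turn, genes called ranged over 0 to 697 in NK cells, 8 to 1848 in CD8 T cells, 146 to 711 in CD4 T cells, 38 to 2605 over all cells, 1 to 495 in mature dendritic cells and 22 to 36 for the interaction. The 0, without wtIDH1 library 1 in edgeR, stood beside 477 genes at an unadjusted p under 0.05. A group left with 1 library was assumed to vary like the other. Log2 fold changes that changed sign ranged in NK cells over -0.30 to 0.21 (Prf1) and -0.41 to 0.04 (Serpinb9). In CD8 T cells they ranged over -2.13 to 0.26 (Gzma), -1.52 to 0.73 (Gzmd), -1.46 to 1.23 (Gzme), -0.72 to 1.33 (Gzmf), -0.52 to 0.88 (Gzmk) and -0.37 to 0.84 (Prf1). In cycling over non-cycling cells they ranged over -0.14 to 1.99 (Gzmc), -1.54 to 0.18 (Gzmf) and -0.21 to 0.10 (Prf1), and for the interaction over -0.04 to 2.60 (Gzma), -1.53 to 2.02 (Gzmk) and -1.13 to 0.47 (Prf1).

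Scaling by library totals made 137 higher and 180 lower calls in NK cells, against 196 and 41 with TMM, 100 and 90 in CD4 T cells, against 275 and 90, and 763 and 1273 between CD8 and CD4 T cells, against 1033 and 948. Replicate numbers did not pair the libraries, since same-numbered libraries deviated with a correlation of at most 0 in each of the 4 class fits. With the replicate block, genes called numbered 123 in NK cells, 776 in CD8 T cells, 213 in mature dendritic cells and 45 for the interaction; Gzmb in NK cells was not called (adjusted p = 0.0867), while Gzma and Gzmb in CD4 T cells were (adjusted p = 7.58e-09 and 0.00481), as was Gzma in the interaction (adjusted p = 0.00118). Cycling cells with at most 5% mitochondrial UMIs, and Foxp3 positive against negative CD4 T cells, were not tested, having under 20 cells in a library.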
